A study of Danio rerio with 6 samples.

Results

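The transcription factors that set up the vertebrate eye field and keep retinal progenitor cells (RPCs) in their progenitor state were examined in heads of *prpf31*-/- zebrafish. The set was named with earlier results of these data known, by a rule that uses gene names and no measured value, and holds 9 genes of the 34965 in the tables, namely *rx1*, *rx2*, *rx3*, *pax6a*, *pax6b*, *six3a*, *six3b*, *six6a* and *lhx2b*. The table of gene names drops the letter that tells some duplicated zebrafish genes apart, so both *pax6* and both *six3* copies are given as copy 1 and copy 2, and both *six6* copies were followed because only 1 of them is *six6a*. This made 10 rows for the 9 genes, and all 10 passed the filter on low counts.

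The study sequenced poly-A RNA from heads of *prpf31*-/- embryos (mutant, 3 libraries) and wild-type siblings (sibling, 3 libraries) of the AB strain at 36 hours post fertilization (hpf). Each library pooled 35 heads dissected with needles, and the tails served for genotyping. The mutant line was made with CRISPR/Cas9 and carries its mutation in every cell, so a change in the eye is not set apart from one elsewhere in the head. *prpf31* encodes a splicing factor of the tri-snRNP, and its human counterpart is a retinitis pigmentosa gene.

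Eye development starts in a single field at the front of the neural plate, which expresses Rx, Pax6, Six3, Six6 and Lhx2 proteins together. In zebrafish, *rx3* drives the outgrowth of the optic vesicles, while *rx1* and *rx2* stay on in proliferating retinal cells. Pax6, Six3 and Lhx2 genes are also used outside the retina, in the lens, the forebrain or both, and RPCs leave this state as they turn on genes such as *atoh7* and become neurons.

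Levels are given as CPM, counts brought to a common library total, after scaling between libraries with the trimmed mean of M values (TMM). Total counts were 65612727 to 66381302 in mutants and 58706617 to 65799306 in siblings. *prpf31* itself read 22.4, 24.5 and 27.3 CPM in mutants 1, 2 and 3, against 38.7, 37.9 and 37.6 CPM in siblings 1, 2 and 3 (log2 fold change -0.62, SE 0.11, edgeR adjusted p = 0.018), so the labels and this gene go the same way. Library mutant 1 stood apart. It had a TMM factor of 0.816, where the remaining 5 libraries had 1.02 to 1.06. The top 10 genes held 14.5% of all counts in mutant 1, and 8.14% to 9.54% in the others.

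Mutant 1 had the lowest level of the 6 libraries in all 10 rows, whereas 30.4% of the 24277 tested genes were lowest there. Its levels ran from 19.5% (*rx1*) to 44.0% (*pax6* copy 2) of the mean of mutants 2 and 3, a log2 difference of -2.34 to -1.18 with a median of -1.60, while the median over all tested genes was -0.041. Of all tested genes, 4.91% were as far below mutants 2 and 3 as *pax6* copy 2 or further. Most other head lists also had negative medians in this library, at -1.78 over lens genes, -1.34 over diencephalon genes, -0.80 over 19 other RPC genes and -0.21 over hindbrain genes. Retinal pigment epithelium genes had a median of 0.18, with 5 of 10 highest of the 6 libraries in mutant 1 and 4 lowest. This list was split, from *otx2* at -1.58 to *mitf* copy 1 at 0.74. Which cells of the head these reads came from was not tested, so the median is not a measure of that tissue. Lists of skeletal muscle, epidermis and posterior trunk Hox genes moved the other way. All 8 skeletal muscle genes, all 9 epidermis genes and all 15 posterior trunk Hox genes were highest of the 6 libraries in mutant 1, with summed levels of 35752, 35922 and 300.0 CPM, against 14578 to 19982, 16000 to 23594 and 107 to 159 CPM in the other 5. No gene of these 3 lists was at 0 counts in any library. Erythrocyte genes, also from outside the brain and eye, had a median of -0.94, and all 6 were lowest in mutant 1. The part of these list differences in the results was not tested. The comparisons of the 10 rows are therefore given with and without mutant 1. In such bulk samples, fewer cells of a type and less RNA per cell cannot be told apart.

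**Figure D1:**
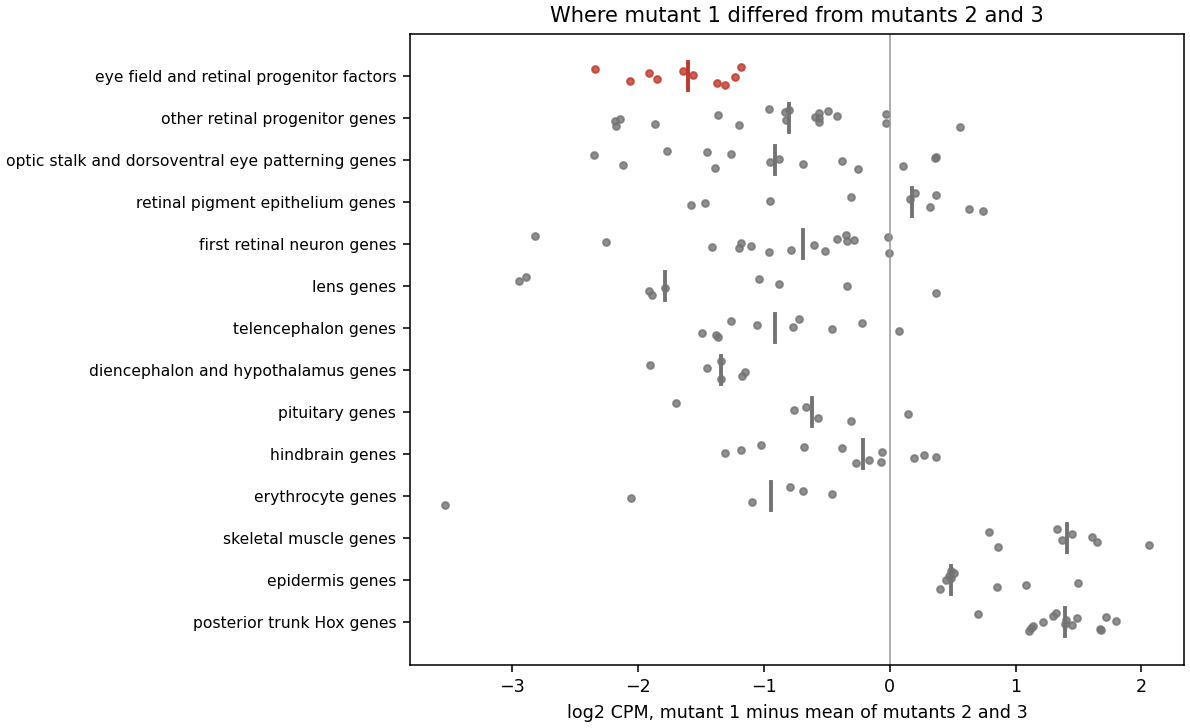
Difference in log2 CPM between mutant 1 and the mean of mutants 2 and 3 (x axis) for each tested gene of 14 lists (rows), with each gene as a point and each list's median as a bar. All 10 eye field and RPC factors (red, top row) lie between -2.34 and -1.18, while every skeletal muscle, epidermis and posterior trunk Hox gene lies above 0.

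With all 6 libraries, none of the 10 rows passed the test. In the same fit (edgeR quasi-likelihood test, Benjamini-Hochberg adjusted p of 0.05 or lower), 3.83% of tested genes were lower and 3.96% higher in mutants. At an unadjusted p under 0.05, only *rx2* passed, against 24.2% of all genes. DESeq2, which called 12.9% of the genes it tested, called 1 row (*rx2*, adjusted p = 0.0162). With limma on log2(FPKM + 1) 0 rows were called, but its share of all genes is not given, so this count has no background. The median log2 fold change was -0.26 over the 10 rows and 0.019 over all tested genes.

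Without mutant 1, 3 rows passed, with *rx1* and *pax6* copy 2 higher and *rx2* lower in mutants. In that fit, 8.22% of 24821 tested genes were higher and 8.17% lower. DESeq2 called 5 rows on these libraries and 19.9% of all genes. The median over the 10 rows was then 0.054. Mutants 2 and 3 both lay above all siblings in 5 rows (*rx1*, both *pax6* copies, *six3* copy 1 and *six6* copy 1), below them in 1 (*rx2*) and overlapped them in 4, where 23.5% of all tested genes lay above and 24.3% below. Skeletal muscle and posterior trunk Hox genes differed in these libraries too, and here in the other direction. Epidermis genes did not, with summed levels of 23594 and 18157 CPM in mutants 2 and 3, against 16000 to 21913 CPM in siblings. None of the 9 epidermis genes passed the test without mutant 1. Summed skeletal muscle genes were at 14582 and 14578 CPM in mutants 2 and 3, against 16314 to 19982 CPM in siblings, and summed posterior trunk Hox genes were at 107 and 133 CPM in mutants 2 and 3, against 146 to 159 CPM in siblings, with 3 of 8 and 3 of 15 genes lower by the test. The sum over 10 telencephalon genes was 163 and 150.0 CPM in mutants 2 and 3, against 145 to 155 CPM in siblings, so this list overlapped. Summed hindbrain genes (231 and 223 CPM against 248 to 269), first retinal neuron genes (911 and 853 against 981 to 1041) and lens genes (458 and 423 against 593 to 721) were below all siblings. The 10 rows summed were above (312 and 282 against 233 to 264). The *pax6* copies weighed most in this sum, with copies 2 and 1 at 107 and 60.4 CPM in mutant 2. In mutant 3 they were at 97 and 61.1 CPM. Row by row, 5 were above all siblings, 1 was below and 4 overlapped. The remaining head and eye lists overlapped, diencephalon genes among them (185 and 170 against 181 to 186). The part of these differences in the calls was not tested.

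**Figure D2:**
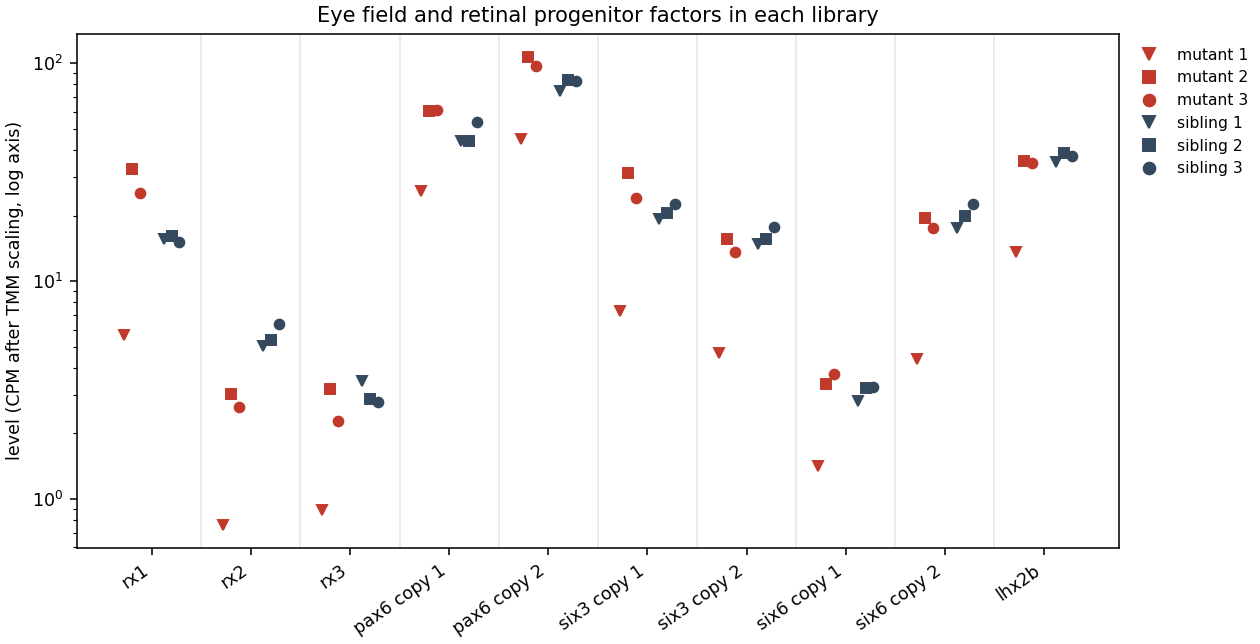
Level of each of the 10 rows in every library (CPM after TMM scaling, log axis), with mutants in red to the left of siblings in dark blue and marker shape for the replicate number. Mutant 1 (red triangle) is the lowest library for every gene, *rx1* in mutants 2 and 3 is above all siblings, and *rx2* is below them in all 3 mutants.

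Of the Rx genes, *rx1* and *rx2* are among the most eye-restricted of the set, and without mutant 1 *rx1* was higher and *rx2* lower in mutants. *rx1*, a homeobox factor of retinal progenitors, read 5.68, 32.6 and 25.5 CPM in mutants 1, 2 and 3, against 15.7, 16.2 and 15.1 CPM in siblings 1, 2 and 3. Siblings were close to each other, mutants 2 and 3 were above them, and mutant 1 was below, so the groups of 3 overlapped (log2 fold change 0.44, SE 0.51, edgeR adjusted p = 0.646). Without mutant 1, *rx1* was 1.84-fold higher in mutants (log2 fold change 0.88, SE 0.12, edgeR adjusted p = 0.00391). It passed under every alternative tried on those 5 libraries, with log2 fold changes of 0.69 to 1.05.

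*rx2*, its close relative in retinal progenitors, read 0.763, 3.05 and 2.65 CPM in mutants 1, 2 and 3. In siblings 1, 2 and 3 it read 5.02, 5.36 and 6.33 CPM. It was the only row whose groups did not overlap over all 6 libraries, where 17.4% of tested genes had all mutants below all siblings. The log2 fold change was -1.36 (SE 0.44, edgeR adjusted p = 0.105). With the replicate number as a block it was -1.51 (SE 0.34, edgeR adjusted p = 0.0307), in a fit that called 6.61% of tested genes lower. Without mutant 1, *rx2* fell to 0.509 of the sibling level (log2 fold change -0.98, SE 0.17, edgeR adjusted p = 0.0105), and a further loss of mutant 3 took the adjusted p to 0.0889.

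*rx3*, which acts first in zebrafish eye outgrowth, was among the least abundant of the set. It read 0.894, 3.19 and 2.28 CPM in mutants 1, 2 and 3, against 3.48, 2.89 and 2.78 CPM in siblings 1, 2 and 3. Mutant 2 lay within the range of the siblings and mutant 3 below it. No difference passed the test with mutant 1 (log2 fold change -0.52, SE 0.41, edgeR adjusted p = 0.485) or without it (-0.17, SE 0.22, adjusted p = 0.67).

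The share of *rx1* in the sum of *rx1* and *rx2* does not depend on the scaling between libraries. Computed from FPKM, which are fragment counts divided by gene length and library total, it was 78.7%, 84.1% and 82.7% in mutants 1, 2 and 3, against 60.8%, 60.0% and 54.2% in siblings 1, 2 and 3. The means were 81.8% ± 2.82 in mutants and 58.4% ± 3.60 in siblings (SD, n = 3 each), a difference of 23.5 percentage points. All 3 mutants, mutant 1 included, were above all siblings (exact permutation test, two-sided, p = 0.1, the smallest that 3 against 3 allows; 0.25 after adjustment over the 5 shares and ratios compared). The sum of *rx1* and *rx2* was 2.22, 14.9 and 12.1 FPKM in mutants 1, 2 and 3, against 9.93, 10.8 and 11.2 FPKM in siblings 1, 2 and 3. The portion of all gene pairs whose shares separate in this way is not given, so this separation has no background. How reads that fit both genes were handled is not stated in the sources used here, and their part in this share was not tested.

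*pax6*, used in retina, lens and brain, gave the highest level per length of the set. Copy 1 read 25.9, 60.4 and 61.1 CPM in mutants 1, 2 and 3, against 44.1, 44.1 and 53.5 CPM in siblings 1, 2 and 3. Copy 2 read 44.8, 107 and 97.0 CPM in mutants 1, 2 and 3, against 74.8, 84.2 and 82.9 CPM in siblings 1, 2 and 3. In both copies mutants 2 and 3 were above every sibling and mutant 1 was below every sibling, so neither passed with all 6 libraries (edgeR log2 fold changes 0.057, SE 0.30, adjusted p = 0.929, and 0.039, SE 0.29, adjusted p = 0.95).

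Without mutant 1, *pax6* copy 2 was 1.26-fold higher in mutants (log2 fold change 0.33, SE 0.087, edgeR adjusted p = 0.0437). Copy 1 had a log2 fold change of 0.35 (SE 0.10, adjusted p = 0.061), and was called with the replicate block (0.31), with DESeq2 (0.36), with at least 10 counts in every library (0.37) and without sibling 3 (0.45), but not when any other library was left out. The call of copy 2 was lost when library sizes alone, no filter or limma was used, and when any 1 further library was left out, with adjusted p up to 0.241. The share of copy 1 in the summed FPKM of both copies was 12.8%, 12.5% and 13.7% in mutants 1, 2 and 3, against 13.0%, 11.7% and 14.0% in siblings 1, 2 and 3 (difference 0.104 points, exact permutation p = 1), so both copies kept about the same proportion in every library.

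*six3* encodes a repressor of the anterior forebrain and eye. Copy 1 read 7.32, 31.5 and 24.1 CPM in mutants 1, 2 and 3, against 19.3, 20.6 and 22.7 CPM in siblings 1, 2 and 3. Mutants 2 and 3 were above all siblings, but it did not pass with all libraries (log2 fold change 0.0098, SE 0.44, edgeR adjusted p = 0.992) or without mutant 1 (0.41, SE 0.13, adjusted p = 0.0814), where DESeq2 alone called it (0.42, adjusted p = 0.0399). Copy 2 read 4.67, 15.7 and 13.6 CPM in mutants 1, 2 and 3, against 14.8, 15.6 and 17.7 CPM in siblings 1, 2 and 3. Its groups overlapped with and without mutant 1 (log2 fold changes -0.50, SE 0.38, adjusted p = 0.472, and -0.14, SE 0.12, adjusted p = 0.48).

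As with the Rx pair, the shares of the *six3* copies did not overlap between mutants and siblings. Here too, the portion of all gene pairs that separate in this way is not given. The share of copy 1 in their summed FPKM was 62.7%, 68.4% and 65.5% in mutants 1, 2 and 3. In siblings 1, 2 and 3 it was 58.4%, 58.6% and 58.0%. The difference was 7.20 percentage points (65.5% ± 2.84 in mutants and 58.3% ± 0.311 in siblings, SD, n = 3 each), again without overlap (exact permutation test, two-sided, p = 0.1; 0.25 after adjustment over 5).

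**Figure D3:**
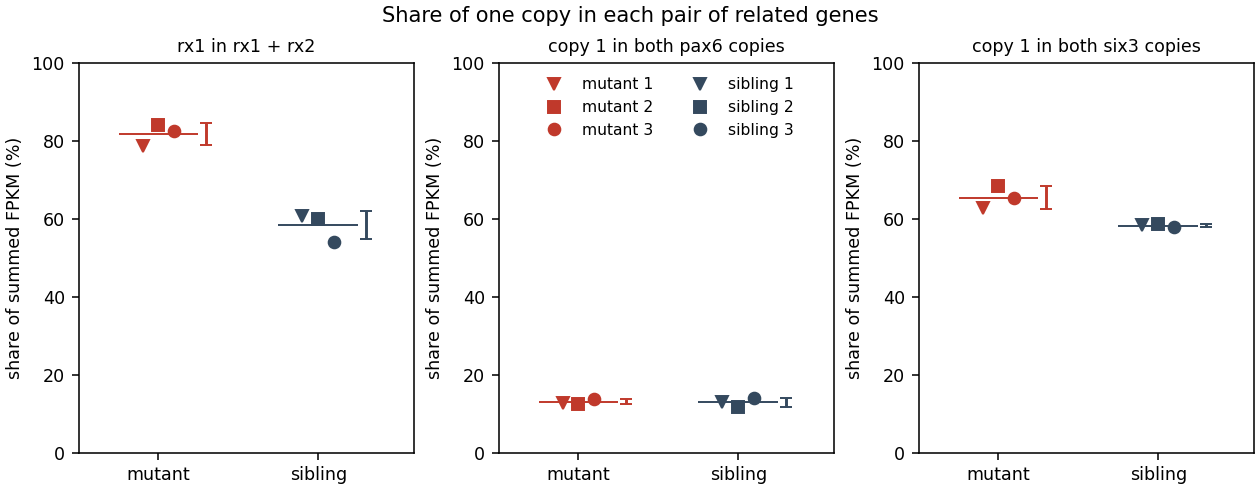
Share of 1 gene in the summed FPKM of a pair (y axis, percent) for *rx1* in *rx1* plus *rx2*, and for copy 1 of *pax6* and of *six3*, in mutants (red, left) and siblings (dark blue, right), with the group mean as a line and the SD beside it (n = 3 each). The *rx1* share is 78.7% to 84.1% in mutants and 54.2% to 60.8% in siblings, the *six3* share also separates the groups, and the *pax6* share overlaps.

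*six6*, a factor of retinal progenitor proliferation, also had a weak and a strong copy. Copy 1 read 1.42, 3.39 and 3.74 CPM in mutants 1, 2 and 3, against 2.81, 3.25 and 3.26 CPM in siblings 1, 2 and 3. Copy 2 read 4.39, 19.5 and 17.5 CPM in mutants 1, 2 and 3, against 17.6, 20.0 and 22.5 CPM in siblings 1, 2 and 3. Neither passed with all libraries (edgeR log2 fold changes -0.12, SE 0.34, adjusted p = 0.865, and -0.54, SE 0.46, adjusted p = 0.522) or without mutant 1 (0.19, SE 0.17, adjusted p = 0.517, and -0.13, SE 0.12, adjusted p = 0.547).

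*lhx2b*, a LIM homeobox gene needed for the zebrafish optic chiasm, had similar levels in the 5 libraries other than mutant 1. It read 13.6, 35.7 and 34.8 CPM in mutants 1, 2 and 3, against 35.1, 38.7 and 37.5 CPM in siblings 1, 2 and 3. Apart from mutant 1, the libraries spanned 34.8 to 38.7 CPM. The log2 fold change was -0.40 (SE 0.32, edgeR adjusted p = 0.492) with mutant 1 and -0.082 (SE 0.086, adjusted p = 0.58) without it.

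**Figure D4:**
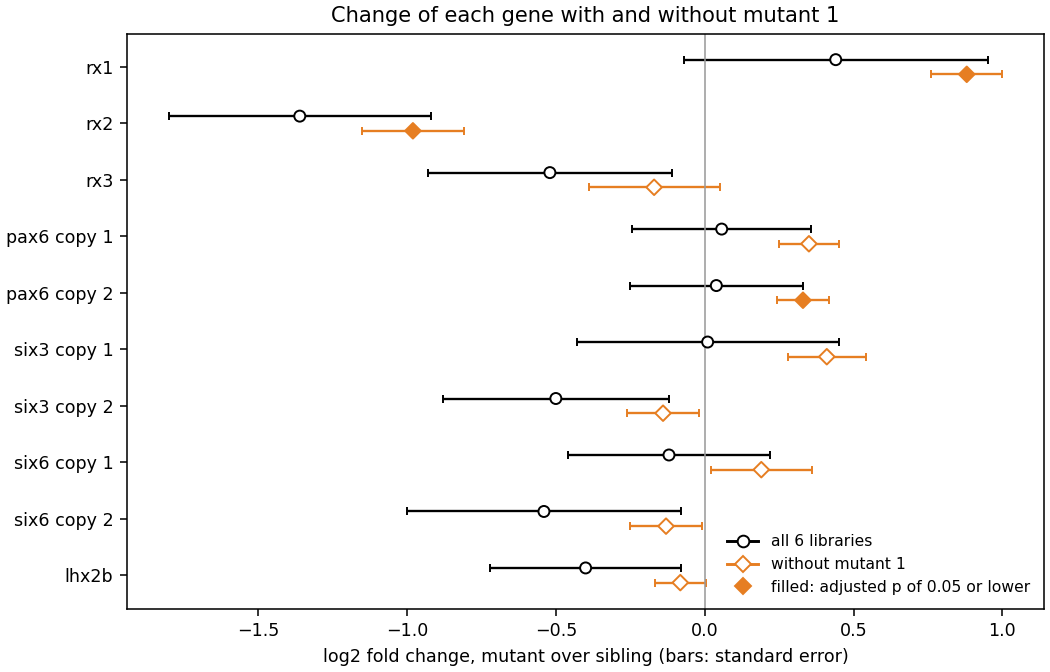
Log2 fold change, mutant over sibling, with its standard error (x axis) for the 10 rows, from all 6 libraries (black circles) and without mutant 1 (orange diamonds), filled where the edgeR adjusted p was 0.05 or lower. No circle is filled, and the filled diamonds are *rx1* at 0.88, *rx2* at -0.98 and *pax6* copy 2 at 0.33.

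On the level per length, the order of the genes differed between the groups by at most 2 places. *six3* copy 1 stood at place 2 in mutants 2 and 3 and 4 in siblings, and *six6* copy 2 at place 5 in mutants 2 and 3 and 3 in siblings. In mutants 2 and 3, *rx1* averaged 11.3 FPKM and overlapped *six6* copy 2, while *rx2* averaged 2.24 FPKM and overlapped *rx3*. In siblings, *rx1* stood seventh at 6.21 ± 0.26 FPKM, with *rx2* next at 4.45 ± 0.625 FPKM (SD, n = 3), and neither overlapped a neighbour in the order. At the top, *pax6* copy 2 averaged 80.6 FPKM in mutants 2 and 3, against 64.9 FPKM in siblings. It stood apart from the next gene in both groups, *six3* copy 1 at 16.3 FPKM in mutants 2 and 3 and *lhx2b* at 17.1 FPKM in siblings. Sibling neighbours that overlapped were *six6* copy 2 with *six3* copy 1 (13.0 and 12.5 FPKM) and *pax6* copy 1 with *six3* copy 2 (9.60 and 8.90 FPKM). This order rests on the gene lengths behind FPKM, which were 1304 bp for *pax6* copy 2 and 5162 bp for copy 1. In CPM, *pax6* copies 2 and 1 averaged 102 and 60.7 in mutants 2 and 3.

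Because mutant 1 was low for the whole set, each gene was also set against the mean log2 CPM of the other 9 rows in its own library, a comparison added after the data had been seen. On this relative scale, *rx1* was higher in mutants by 0.63, *pax6* copy 1 by 0.48, *pax6* copy 2 by 0.46 and *six3* copy 1 by 0.27, each with all 3 mutants above all siblings. *rx2* was at -1.22, *six6* copy 2 at -0.36 and *six3* copy 2 at -0.22, each with all 3 mutants below all siblings. *rx3*, *six6* copy 1 and *lhx2b* overlapped. With all 6 libraries, the exact permutation p was 0.1 for each gene without overlap, the smallest possible, and 0.143 after adjustment over 10. The 10 values of a library are not independent, since each is measured against the rest. Without mutant 1, the differences were 0.89 for *rx1*, 0.33 and 0.29 for *pax6* copies 1 and 2, and 0.37 for *six3* copy 1. They were -1.14 for *rx2*, -0.21 for *six6* copy 2 and -0.23 for *six3* copy 2. The exact permutation p was then 0.1 for each of these but *six6* copy 2, at 0.2. A share of all genes that separate on such a scale is not given.

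The ratios between gene pairs overlapped between the groups. The log2 ratio of summed *rx1* and *rx2* to summed *pax6* was -3.85, -2.68 and -2.89 in mutants 1, 2 and 3, against -2.76, -2.84 and -2.81 in siblings 1, 2 and 3, with only mutant 1 far from the rest (exact permutation p = 0.7). The ratio to summed *six3* was -1.28, -0.84 and -0.85 in mutants 1, 2 and 3, against -0.95, -0.97 and -1.08 in siblings 1, 2 and 3 (exact permutation p = 1). Without mutant 1, the ratio to *six3* was higher in both mutants than in all siblings by 0.15 (exact permutation p = 0.1, the smallest that 2 against 3 allows).

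The genes that act beside and after this set were followed in lists compiled with earlier results of these data known. Of 19 other RPC genes, 4 were lower and 0 higher in mutants with all libraries, with a median log2 fold change of -0.26. The lower ones were *six7* (-3.21, SE 0.47, edgeR adjusted p = 0.00982), a homeobox gene tied to photoreceptors in zebrafish, *vsx1* (-1.76, SE 0.17, adjusted p = 0.00175), used by progenitors and bipolar cells, and the eye and lens genes *mab21l1* (-1.02, SE 0.25, adjusted p = 0.0467) and *mab21l2* (-1.02, SE 0.17, adjusted p = 0.0144). *six7* read 0.186, 0.236 and 0.351 CPM in mutants 1, 2 and 3, against 2.11, 1.36 and 3.80 CPM in siblings 1, 2 and 3. Like *rx2*, it and *vsx1* were below all siblings in all 3 mutants, *vsx1* at 3.28, 4.16 and 4.62 CPM in mutants 1, 2 and 3, against 13.5, 12.5 and 15.0 CPM in siblings 1, 2 and 3. The highest of the list was the cyclin D1 gene *ccnd1* (0.62, SE 0.22, adjusted p = 0.134), which passed without mutant 1 (0.83, adjusted p = 0.000789), where 3 genes of the list were higher and 6 lower. The 4 lower genes also passed without mutant 1, at -3.05 for *six7*, -1.65 for *vsx1*, -0.78 for *mab21l1* and -0.86 for *mab21l2*. With the replicate block 5 genes were lower and 0 higher.

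Genes of the first retinal neurons were read in whole heads, so expression outside the retina was not set apart. Among these 16 genes, 3 were lower and 1 higher in mutants, with a median log2 fold change of -0.61. The lower ones were *pou4f2* (-1.44, SE 0.21, edgeR adjusted p = 0.00866), a ganglion cell factor, *prox1* (-0.54, SE 0.13, adjusted p = 0.0465) and *vsx1*, and the higher one was *prdm1* (0.62, SE 0.12, adjusted p = 0.0236). *atoh7*, which commits progenitors to the ganglion cell fate, had the lowest estimate of the list (-1.95, SE 0.60, adjusted p = 0.0949). It read 0.95, 6.78 and 6.96 CPM in mutants 1, 2 and 3, against 14.5, 20.1 and 22.6 CPM in siblings 1, 2 and 3, and passed without mutant 1 (-1.48, adjusted p = 0.00334), where 7 genes of the list were lower and 1 higher. *pou4f2* (-1.34), *prox1* (-0.44) and *prdm1* (0.61) passed there too. With the replicate block *atoh7* also passed (-2.25, edgeR adjusted p = 0.0166), with 8 genes of the list lower and 1 higher. In the same pair of libraries *rx1* was above every sibling and *atoh7* below every sibling.

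The remaining eye lists differed in how many genes passed. With all 6 libraries, 3.83% of all tested genes were lower and 3.96% higher, and without mutant 1 8.17% and 8.22%. Of 14 optic stalk and patterning genes, *foxd1*, a temporal retina factor, was lower (-0.72, SE 0.16, edgeR adjusted p = 0.0344), and the highest was *tbx3* (0.30, adjusted p = 0.27). Without mutant 1 *foxd1* remained lower (-0.61, adjusted p = 0.0173). Of 10 retinal pigment epithelium genes none passed, between *otx2* (-0.70, adjusted p = 0.291) and *mitf* copy 1 (0.76, adjusted p = 0.0892). Without mutant 1, 1 of them was higher and 1 lower. The lower one was *otx2* (-0.35, edgeR adjusted p = 0.0499). The higher one, named after its value was seen, was *otx2a* (0.69, edgeR adjusted p = 0.00505). With the replicate block 2 were higher, *mitf* copy 1 among them (0.73, adjusted p = 0.0277). Of 9 tested lens genes, *cryaa*, an alpha crystallin, was lower (-2.07, SE 0.44, adjusted p = 0.0334), as was *prox1*, and the highest was *mafb* (-0.086, adjusted p = 0.729). Without mutant 1, 5 lens genes were lower, *cryaa* among them (-1.69, adjusted p = 0.00341), and with the replicate block 4 were lower.

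The genes whose pattern over the 6 libraries was closest to the mean z-score of the 10 rows were E2F4 (r = 0.9973), NKX2-4 (0.9971), SV2A (0.9961), *parn* (0.9960) and SPOPL (0.9954). These are Pearson correlations over 6 libraries in which mutant 1 stood apart. The mean z-score was -1.92 in mutant 1, 0.62 in mutant 2 and 0.39 in mutant 3, against 0.18, 0.31 and 0.42 in siblings 1, 2 and 3, and 2.67% of 13725 genes correlated above 0.95. E2F4, for one, read 33.8, 57.9 and 54.4 CPM in mutants 1, 2 and 3, against 53.2, 53.6 and 53.6 CPM in siblings 1, 2 and 3.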

How the data were processed

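The 6 libraries were grouped by genotype from the sample labels. The authors aligned reads to GRCz11 with HISAT2 (2.0.4) and deposited whole-number counts per gene, and their methods name both featureCounts and HTSeq (0.9.1). The annotation and any use of strand in counting are not given in the sources used here, and the library kit does not mark strand, so overlapping and near-identical genes remain uncertain. The authors also deposited FPKM, computed from counts and gene length. All per-sample columns were used.

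Counts were filtered (filterByExpr), scaled with TMM and tested with edgeR (4.0.16) by its quasi-likelihood test in R (4.3.3), with Benjamini-Hochberg adjustment over 24277 genes (24821 without mutant 1). A gene counted as changed at an adjusted p of 0.05 or lower. Exact permutation tests over libraries, two-sided, were used for shares and ratios. Alternatives were DESeq2 (1.42.0), RLE factors, library sizes alone, tests without a filter or with a minimum of 10 counts in each library, limma (3.58.1) on log2(FPKM + 1) or log2(FPKM + 0.1), a replicate block and each library left out. The fitting code was tested on simulated data.

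Libraries of equal replicate number resembled each other, though no label states a pairing. Deviations from the group mean correlated at 0.415, 0.41 and 0.547 within equal numbers and at -0.334 to -0.117 between others (19484 genes). Such deviations cancel out within each group, so positive values within equal numbers bring negative ones between others. The blocked value is therefore given beside a named gene whose call it changed and a list whose count it moved by over 1.5 times. The methods speak of independent biological replicates of pooled heads.

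Gene names came from a reference table that paired 29201 of 34965 IDs. *rx1* is ENSDARG00000071684, *rx2* ENSDARG00000040321 and *rx3* ENSDARG00000052893. *pax6* copies 1 and 2 are ENSDARG00000045936 and ENSDARG00000103379, *six3* copies 1 and 2 are ENSDARG00000054879 and ENSDARG00000058008, and *six6* copies 1 and 2 are ENSDARG00000025187 and ENSDARG00000031316. The row named LHX2 (ENSDARG00000031222) was taken as *lhx2b*, since *lhx2a* has its own row. Shares planned for *pax6a* and *six3a* were computed for copy 1. Of the list symbols, 152 matched and 32 did not. No coordinates or sequences are given, since no genome of this build was used here. The members, gene lists and tests were chosen with earlier results of these data known. Genes named are all members, the genes of each list that passed with all 6 libraries, its highest and lowest gene, and the 5 genes most like the set among those of at least 5 CPM. A gene that this rule would name is not reported here.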

Additional observations from a re-analysis of the deposited data

How the results depend on the processing

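Of 10 rows, 0 passed in the comparison of all libraries, where 3.83% of all tested genes were lower and 3.96% higher. DESeq2, which called 12.9% of its genes, and the replicate block, which called 6.61% lower, each passed 1 row (*rx2*). With the replicate block without both libraries numbered 1 (added after the data were seen), 4 rows passed. With 1 library left out, 0 to 3 rows passed, 3 being without mutant 1, where 8.22% of genes were higher and 8.17% lower. The share of all genes called is not given for the other fits. Genes of all lists that passed numbered 14, against 23 with DESeq2, 6 with library sizes alone, 31 with the replicate block and 3 to 44 with 1 library left out, 44 being without mutant 1. Without mutant 1, the 3 calls became 5 with DESeq2 and 1 to 3 with a further library left out, a lone mutant library then being assumed to vary like the siblings.

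Estimates near 0 changed sign. For *pax6* copy 1, *pax6* copy 2 and *six3* copy 1, the log2 fold change was -0.022, -0.041 and -0.053 with library sizes alone, which moved the median of all genes to -0.11, then -0.034, -0.052 and -0.20 with the replicate block, -0.14, -0.19 and -0.30 with limma on log2(FPKM + 1) with or without the filter, and -0.17, -0.19 and -0.36 with limma on log2(FPKM + 0.1). *six3* copy 1 was at -0.00013 with no filter and *rx1* at -0.027 with limma on log2(FPKM + 0.1). With 1 library left out, *pax6* copy 1 ranged from -0.13 to 0.35, *pax6* copy 2 from -0.19 to 0.33, *six3* copy 1 from -0.41 to 0.41, *rx1* from -0.0084 to 0.88 and *six6* copy 1 from -0.36 to 0.19, with 0.12 for *six6* copy 1 under the replicate block without both libraries numbered 1. *rx3* without mutant 1 ranged from -0.43 to 0.057. The *pax6* share difference ranged from -0.494 to 0.663 points, the log2 ratio of the Rx pair to *pax6* from -0.57 to 0.020 and to *six3* from -0.067 to 0.15, and *lhx2b* relative to the other rows from -0.16 to 0.031. The cause of these reversals was not tested.

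The *rx1* share difference stayed at 21.4 to 25.0 points with 1 library left out and was 16.2 points from counts, and that of *six3* copy 1 stayed at 5.77 to 8.61 points. With the replicate block, as sign flips within 3 pairs, the exact p of both was 0.25, the smallest possible, so it says nothing of stability. The lowest count was 41 (*rx2* in mutant 1). Counting error was not set apart from the spread between libraries, and 3 libraries a group limited every test.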

Other observations

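Other head lists also held changed genes at 36 hpf. With all 6 libraries, 3.83% of all tested genes were lower and 3.96% higher, and without mutant 1 8.17% and 8.22%. In the pituitary list, *lhx3* was lower in mutants (log2 fold change -0.84, SE 0.15, edgeR adjusted p = 0.0204), and *tbx19* had the lowest estimate (-1.57, adjusted p = 0.154). Without mutant 1 these were at -0.75 (adjusted p = 0.0103) and -1.16 (adjusted p = 0.159). Of 12 hindbrain genes, *hoxb1a* was higher (1.09, SE 0.20, adjusted p = 0.0197), and *pax8* (-0.70, SE 0.16, adjusted p = 0.0388) and *hoxa2b* (-0.66, SE 0.14, adjusted p = 0.0309) were lower, while *en2* copy 2 had the lowest estimate (-0.79, adjusted p = 0.161). All 4 passed without mutant 1, with *hoxb1a* at 1.1, *pax8* at -0.77, *hoxa2b* at -0.76 and *en2* copy 2 at -0.50, and *en2* copy 2 also passed with the replicate block (-0.87, adjusted p = 0.041), where 4 genes of the list were lower and 1 higher. With all 6 libraries, no gene passed among 10 telencephalon genes, from *lhx8* (-0.70, adjusted p = 0.292) to *emx3* (0.34, adjusted p = 0.252), or 6 diencephalon genes, from *barhl2* (-1.08, adjusted p = 0.0899) to *sim1* (0.67, adjusted p = 0.208). Without mutant 1, 2 telencephalon genes were higher, *emx3* among them (0.47, adjusted p = 0.0291), and 2 diencephalon genes were higher and 2 lower. They included *sim1* (0.96, adjusted p = 0.00166) and *barhl2* (-0.76, adjusted p = 0.00541), and, named after its value was seen, the forebrain factor *fezf2* (1.01, adjusted p = 0.000728). With the replicate block *barhl2* alone passed of the diencephalon list (-1.18, adjusted p = 0.0206).

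In the fit of all 6 libraries without a block, no gene passed in the lists of cells from outside the brain and eye. Erythrocyte genes ranged from *hbbe2* (-1.28, edgeR adjusted p = 0.0752) to *hbbe3* (-0.19, adjusted p = 0.794), muscle genes from *acta1* copy 2 (-0.069, adjusted p = 0.934) to *myhz2* (0.59, adjusted p = 0.55), epidermis genes from *krt5* (0.13, adjusted p = 0.711) to *cyt1* (0.56, adjusted p = 0.134) and posterior Hox genes from *hoxa9a* (-0.17, adjusted p = 0.812) to *cdx4* (0.85, adjusted p = 0.349). With the replicate block 3 of 6 erythrocyte genes were lower, *hbbe2* among them (-1.24, edgeR adjusted p = 0.0153). Without mutant 1, *acta1* copy 2 (-0.73, adjusted p = 0.00507) and *hoxa9a* (-0.76, adjusted p = 0.00819) were among 3 muscle and 3 Hox genes that were lower.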
